A study of Gallus gallus and Dromaius novaehollandiae and Alligator mississippiensis with 60 samples.

Results

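The genes described here were 33 of the 17889 genes measured, chosen because their RNA was higher in the epidermis of developing feathers than in the epidermis of every foot appendage, in both chicken and emu. For each bird, log2(TPM + 1) was averaged over the epidermis libraries of both stages for feather (dorsal and femoral tracts), scutate scale, reticulate scale and claw. TPM expresses the reads of a gene per unit of its length, as a share of the whole library. A gene was a member when its mean in chicken epidermis was at least 2 TPM and when feather stood at least 1 log2 unit above the highest of the other appendages in each bird. An emu value existed for 8749 genes, and 6504 of these reached the chicken level. Among those 6504, 208 reached the margin in chicken, 81 in emu and 33 in both.

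The early samples of feathers, scales and claws were all labelled placode. A placode is a thickened patch of embryonic epidermis that signals to a condensation of dermis below. The feather placode grows out into a bud, a tapered outgrowth that elongates before the follicle forms. Scutate scales are large overlapping plates along the front of the lower leg and foot of birds, whereas reticulate scales form the pebbled surface of the sole. Alligator body scales are the reptilian counterpart with which the bird appendages were compared.

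The study profiled 60 RNA libraries of embryonic skin from chicken (30), emu (18) and alligator (12), with no genetic or drug treatment named in the labels. Epidermis was parted from dermis with dispase, and dermis was sequenced in chicken, with 10 libraries. Feather placodes were at Hamburger-Hamilton stages 33 to 34 and feather buds (the morphogenesis samples) at stage 36, while claw was at stages 36 and 38, scutate scale at 37 and 40 and reticulate scale at 39 and 40. Under the same stage name, foot samples were thus labelled as older than those of feather. In emu 1 specimen number covered both a stage 36 feather bud and a stage 37 scutate placode library. Another covered a stage 38 claw and a stage 40 scutate scale library, so the stages are those of the group labels. Alligator flank scale was at Ferguson stages 22 and 23, femoral scale at 21 and 23 to 24, and claw at 21 and 22. Epidermis groups held 2 libraries, except for the placodes of emu claw and emu reticulate scale, which held 1, and each dermis group held 1. The 4 feather epidermis libraries of a stage were taken from 2 chicken or 3 emu specimens. The emu feather samples called femoral here were labelled flank/femoral tract, and those of chicken femoral tract. The library totals and the numbers of genes with a value differed between species, so levels are set side by side within a species only. In tissue pieces such as these, fewer cells of a type and less RNA per cell cannot be told apart. The files pair no symbol with the chicken Ensembl identifiers, and 0 of them matched the reference table, so the genes are given by identifier and no role is assigned to them.

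The margin by which feather exceeded the next highest appendage ran from 1.04 to 4.09 log2 units in chicken, with a median of 2.07, and from 1.003 to 4.50 in emu, with a median of 1.57. These margins chose the members and are a description with no test. The chicken margin was the larger for 25 of the 33 genes. Taking the smaller of both birds' margins, the last members lay at 1.02, 1.01 and 1.003, and the nearest genes outside lay at 0.993, 0.963 and 0.91. The next highest appendage in chicken was scutate scale for 14 members, reticulate scale for 13 and claw for 6. In emu it was scutate scale for 15, reticulate scale for 16 and claw for 2, and it was the same appendage in both birds for 22. Claw was the lowest appendage for 18 members in chicken, 25 in emu and 14 in both. These counts have no share over all genes beside them and describe the members only.

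**Figure D1:**
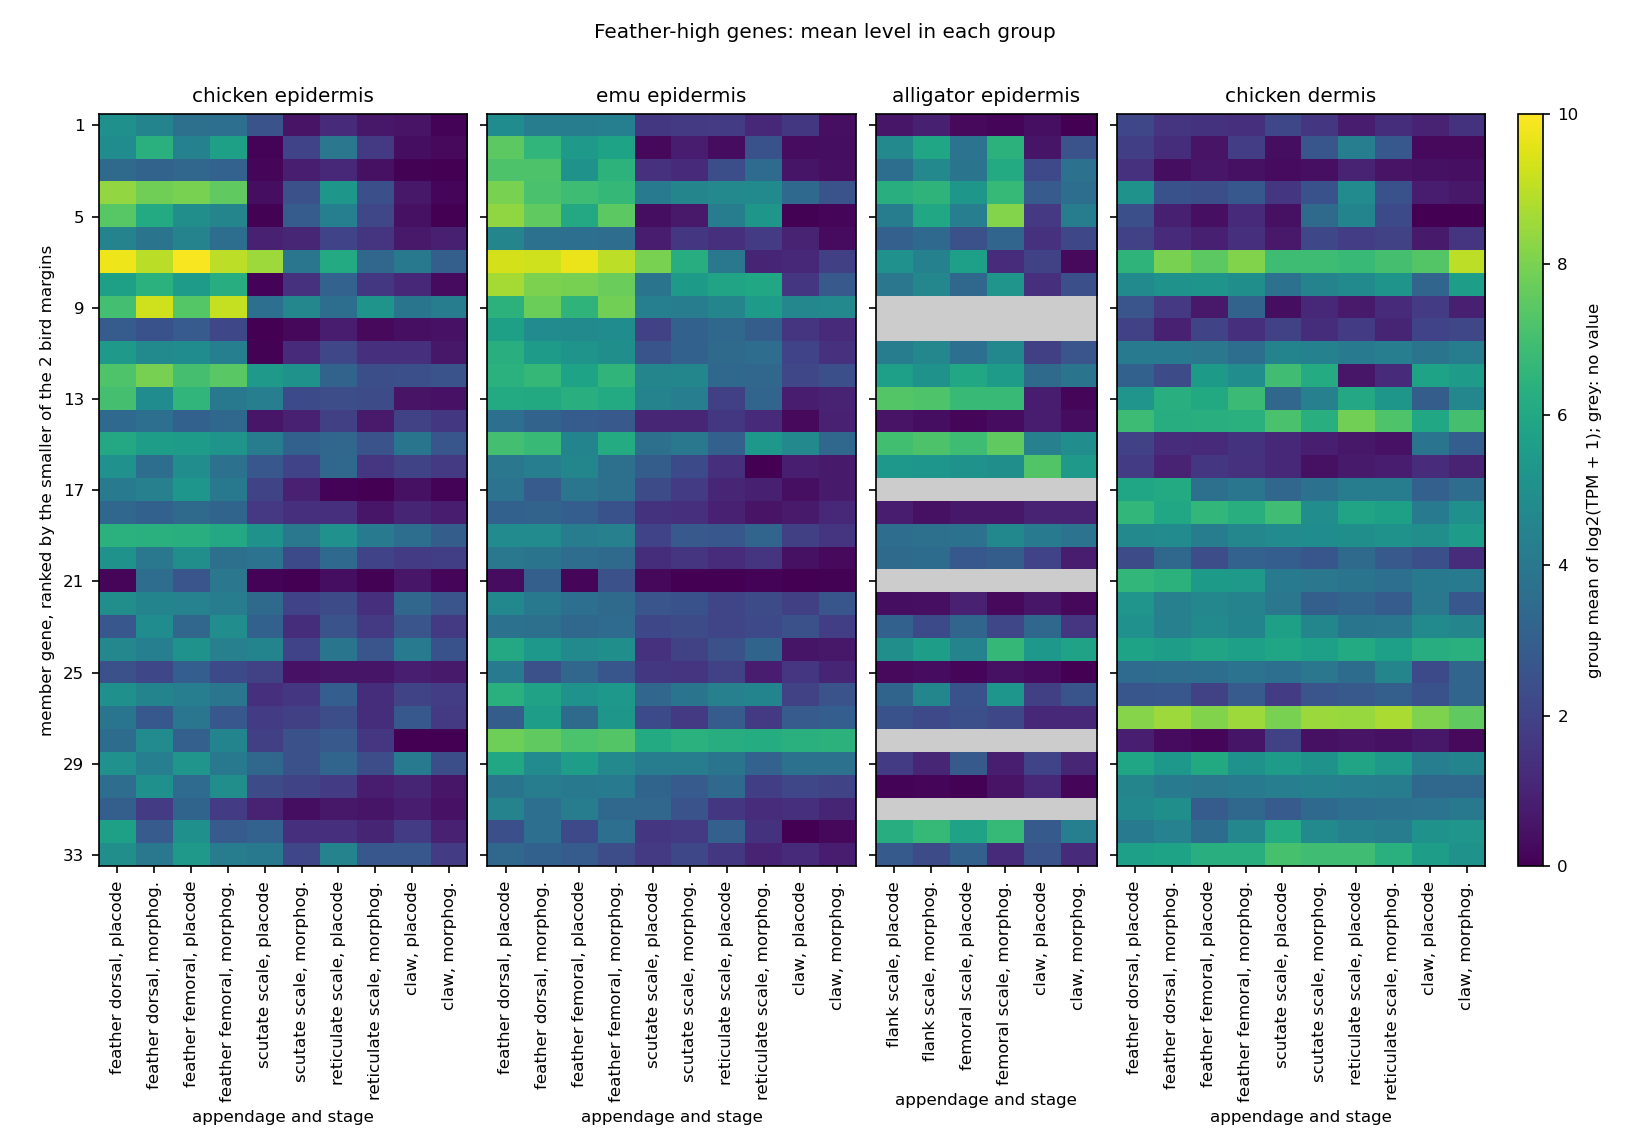
Mean log2(TPM + 1) of each of the 33 members (rows, ranked by the smaller of the bird margins) in each group of libraries (columns) of chicken, emu and alligator epidermis and chicken dermis. The feather columns at the left of the bird panels are the brightest and the claw columns at their right the darkest, with median member levels of 4.95 in chicken dorsal placode and 0.87 in chicken claw morphogenesis. Grey marks the 6 genes with no alligator value.

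The median level of the members, in log2(TPM + 1), was 4.95 in chicken dorsal feather placode, 4.86 in femoral placode, 4.49 in dorsal bud and 4.05 in femoral bud. In chicken foot epidermis it was 2.06 and 1.997 in scutate scale, 2.56 and 1.56 in reticulate scale, and 1.37 and 0.87 in claw, placode first. In emu it lay between 4.49 and 4.87 in the 4 feather groups, between 2.26 and 2.50 in the foot scale groups, and at 1.53 and 1.17 in claw. The place of feather was set by the rule. Below it, the median was higher in foot scales than in claw in both birds, with no all-gene level set beside it.

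The members were not equally clean of foot signal. In chicken, every one of the 8 feather libraries was above every one of the 12 foot libraries for 17 of 33 members (51.5%), against 4.57% of the 6776 genes tested. In emu this held for 25 of 33 (75.8%), over 8 feather and 10 foot libraries, against 4.15% of genes. The rule used the same libraries, so the counts describe it only. ENSGALG00000023419 had the largest value of the smaller margin, 2.69 in chicken and 2.73 in emu. Its chicken feather libraries held 33.0 and 30.2 TPM in dorsal placode, 11.2 and 13.0 in femoral placode, 22.1 and 21.3 in dorsal bud and 12.3 and 11.1 in femoral bud. Its chicken foot libraries ran from 10.3 TPM in a scutate placode library down to 0.0473 TPM in claw, so the groups did not overlap. ENSGALG00000016899 had margins of 2.48 in chicken and 4.50 in emu. Its chicken feather libraries ran from 19.2 to 90.7 TPM, while one chicken reticulate placode library held 36.8 TPM and the other 5.45 TPM. In emu its feather libraries ran from 37.5 to 186 TPM, and 9 of 10 foot libraries held under 1 TPM.

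Feather and foot were also read at one labelled stage, since feather bud and claw placode were both at stage 36. Chicken claw placode replicate 1 shared its specimen with replicate 2 of the dorsal and of the femoral bud, and this pairing was not used. In chicken 29 of 33 members were higher by at least 1 log2 unit in feather bud than in claw placode, with a range from -0.01 to 7.07 and a median of 2.57. The lowest value was that of ENSGALG00000003551, whose claw placode libraries were far apart, at 1.14 and 19.8 TPM. In emu all 33 were, with a range from 1.02 to 7.998 and a median of 2.87, over 1 claw placode library. The emu comparison shares libraries with the choice of members, as does the chicken one. No share over all genes stands beside these counts, so they only describe the chosen genes. Read by stage, the margin reached 1 for 26 members at placode and 32 at morphogenesis in chicken, and for 29 and 30 in emu. It did so at both stages in both birds for 21. The lowest placode margins were below 0, at -0.09 in chicken for ENSGALG00000003930 and -0.73 in emu for ENSGALG00000007759. At morphogenesis the lowest were 0.85 in chicken and 0.52 in emu.

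In most foot groups with 2 libraries, though not in emu scutate scale, the libraries differed in the level of several members at once. In chicken scutate scale at morphogenesis, 13 of 33 members (39.4%) were at least 2-fold higher on the log2(TPM + 1) scale in replicate 2 than in replicate 1, against 3.03% of all 6776 genes. In emu reticulate scale at morphogenesis 8 members (24.2%) were at least 2-fold higher in replicate 2, against 0.974% of genes. In chicken reticulate scale at morphogenesis 9 members (27.3%) were at least 2-fold lower in replicate 2, against 1.28% of genes. In chicken scutate scale at placode 8 members (24.2%) were at least 2-fold lower in replicate 2, against 2.05% of genes. Fewer members were at least 2-fold lower in replicate 2 in the groups that follow. They were 4 (12.1%) in chicken reticulate placode against 1.27% of genes, and 3 (9.09%) in chicken claw morphogenesis against 1.74%. In emu claw morphogenesis they were 5 (15.2%) against 3.96%. In emu scutate scale they were 1 (3.03%) at placode against 0.856% and 0 at morphogenesis against 0.266%. These compare 1 library with 1, have no replicate check, and were chosen for description after the data were seen. ENSGALG00000015205 and ENSGALG00000016899 were in all 3 sets from morphogenesis given first. ENSGALG00000015205 held 0.0709 and 52.1 TPM in the chicken scutate libraries, 14.4 and 102 TPM in the emu reticulate libraries, and 17.9 and 0 TPM in the chicken reticulate libraries. ENSGALG00000016899 held 0 and 15.4 TPM, 0.354 and 23.5 TPM, and 9.72 and 0 TPM in the same libraries. The higher library of each pair was above the lowest feather library of its bird for ENSGALG00000015205, at 17.6 TPM in chicken and 44.2 TPM in emu. It was below it for ENSGALG00000016899, at 19.2 TPM in chicken and 37.5 TPM in emu. Scutate replicate 2 came from the specimen whose scutate dermis held 10.1 TPM of ENSGALG00000015205, the second highest of the 10 dermis libraries. The highest, reticulate placode dermis with 21.6 TPM, shared its specimen with the lower reticulate placode epidermis library, at 14.7 against 23.6 TPM. Reticulate morphogenesis dermis held 3.71 TPM and shared its specimen with the higher epidermis library of that group. In chicken claw placode 10 members (30.3%) were at least 2-fold higher in replicate 2, against 8.85% of genes. That library also carried 16184 summed TPM of 1091 dermis-enriched genes, against 6798 in replicate 1, and 4 of the 10 members were themselves dermis-enriched. In each of those 3 morphogenesis sets 1 member was dermis-enriched. The dermis-enriched genes were those at least 2 log2 units higher in chicken dermis than in chicken epidermis, chosen from these data, and their part in the differences was not tested.

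**Figure D2:**
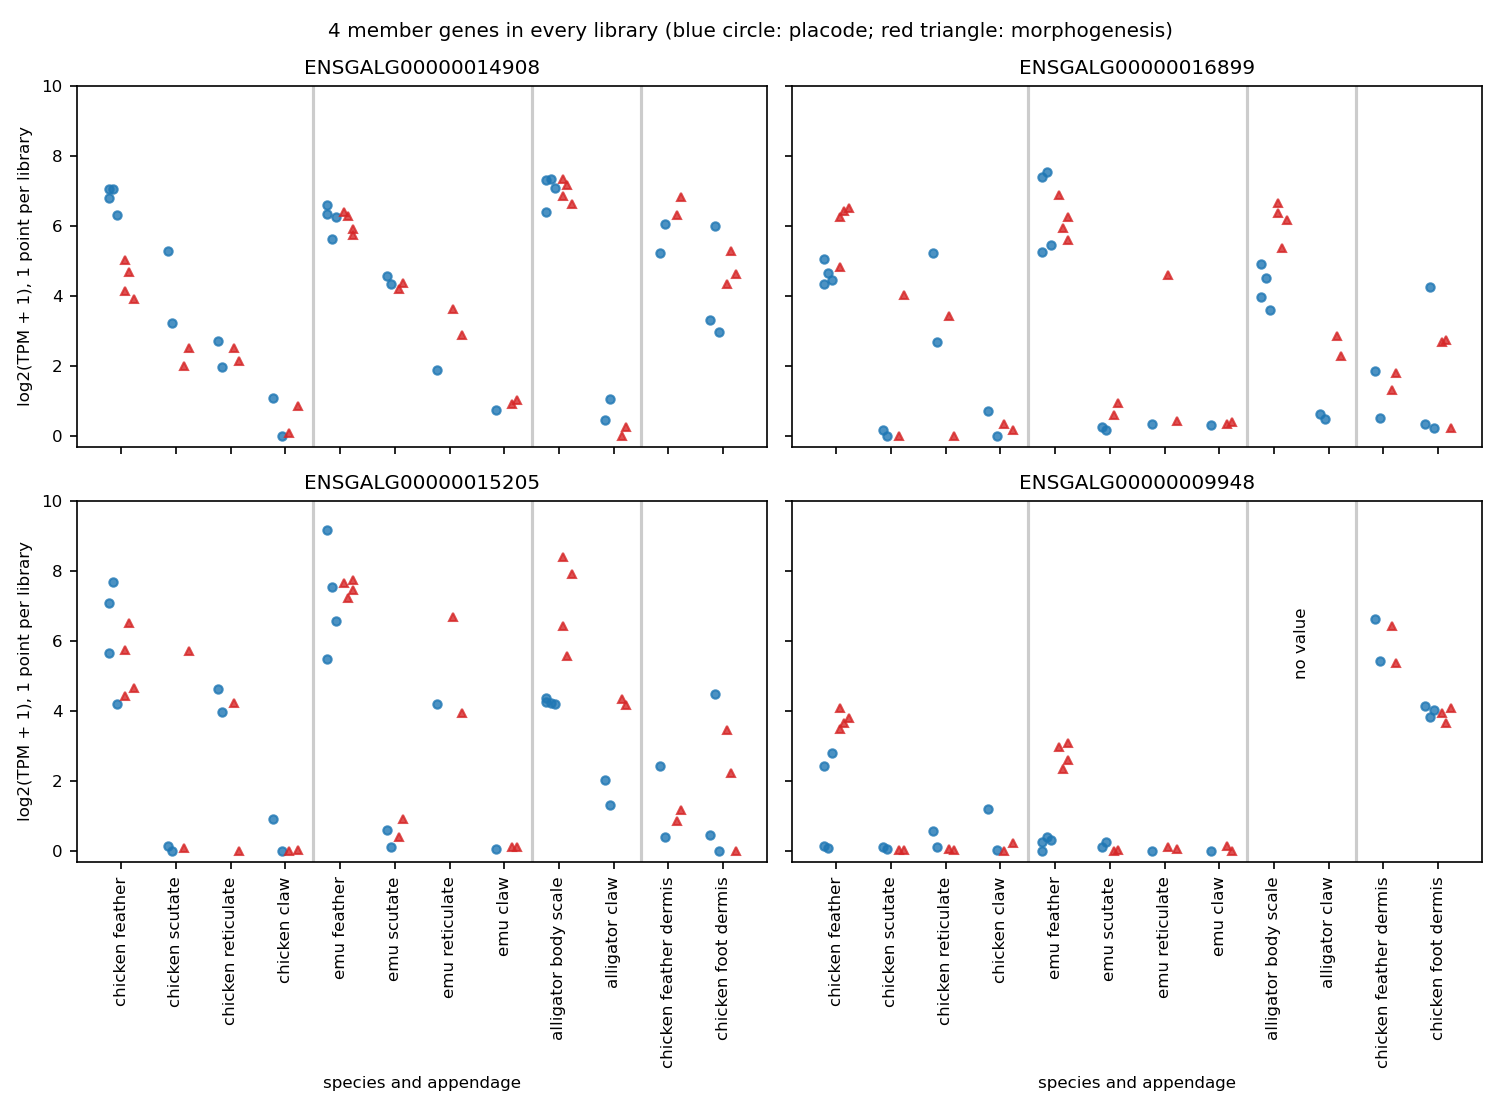
Levels of 4 members in every library, as log2(TPM + 1), by species and appendage, with 1 point per library (blue circles, placode; red triangles, morphogenesis). ENSGALG00000014908 is high in alligator body scale and near 0 in alligator claw, ENSGALG00000016899 and ENSGALG00000015205 are split between libraries of the same foot group, and ENSGALG00000009948 is near 0 in most epidermis libraries other than feather buds.

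Alligator has no feathers, and its libraries took no part in choosing the members. Most members with a tested alligator value were higher in body scale than in claw. Of the 33, 6 had no alligator value and 3 more never reached 1 TPM in an alligator library, which left 24 tested. By limma with Benjamini-Hochberg adjustment over 7811 genes, 15 of the 24 (62.5%) were higher in flank and femoral scale than in claw and 3 (12.5%) were lower. Over all genes 30.9% were called higher and 42% lower, or 2413 and 3281. Rescaling moved this balance towards scale, to 2856 and 2909 with median of ratios and to 2925 and 2716 with quantile normalization, with 16 members higher and 2 lower, then 15 and 2. The median difference was 1.63 log2 units over the tested members and -0.09 over all genes. All 8 scale libraries were above all 4 claw libraries for 11 of 24 members (45.8%), against 9.29% of genes. In claw itself, 22 of the 24 members reached 1 TPM in at least 2 libraries, and among those 14 were higher in scale and 3 lower. Scale and claw libraries ran on different sequencing lanes, and the effect of lane cannot be told apart from that of appendage.

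ENSGALG00000014908 differed most between scale and claw. Its flank scale libraries held 157 and 161 TPM at placode and 161.9 and 142 TPM at morphogenesis, and its femoral scale libraries 134 and 83.8 TPM, then 97.3 and 114.2 TPM. The claw libraries held 0.384 and 1.09 TPM, then 0 and 0.193 TPM. No scale library came near a claw library, and the difference was 6.57 ± 0.14 log2 units (SE; adjusted p = 9.57e-11, limma). In the birds the same gene was also lowest in claw, where 7 libraries held at most 1.11 TPM. For ENSGALG00000016899 the scale libraries held 29.1, 21.8, 11.2 and 14.8 TPM at placode and 81.4, 40.7, 71.7 and 99.2 TPM at morphogenesis, flank first. The claw libraries held 0.557 and 0.41 TPM, then 6.32 and 3.87 TPM, all below the lowest scale library. The difference was 3.63 ± 0.19 (adjusted p = 4.81e-08, limma).

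Of the 3 members lower in scale, 1 was set apart by claw placode and the other 2 were near the filter level, with at most 1.42 TPM in any alligator library. ENSGALG00000023435 held 151.8 and 154 TPM in claw placode, 40.3 and 42.7 TPM in claw morphogenesis, and 24.4 to 44.8 TPM in the 8 scale libraries. The difference was -1.17 ± 0.14 (adjusted p = 2.37e-05, limma), with claw placode apart from all other libraries and claw morphogenesis within the range of scale. ENSGALG00000000337 differed by -0.44 ± 0.11 (adjusted p = 0.00347, limma), but its highest alligator library held 1.28 TPM. ENSGALG00000023419, first by margin in the birds, was among the 3 genes left untested, with at most 0.943 TPM in alligator.

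**Figure D3:**
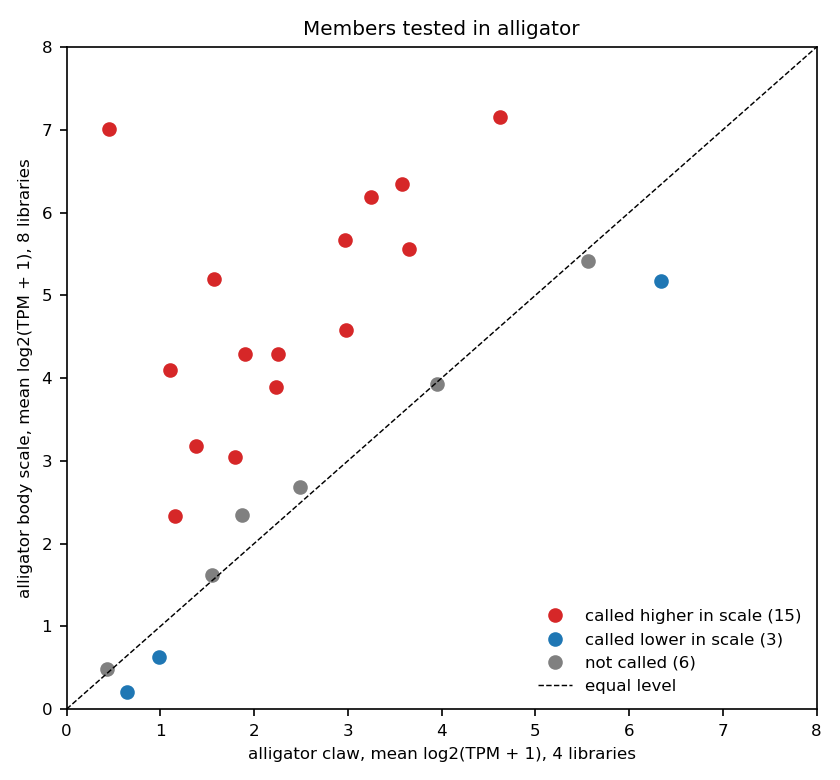
Mean log2(TPM + 1) of the 24 tested members in alligator claw (x axis, 4 libraries) and alligator body scale (y axis, 8 libraries). Red points, called higher in scale, are 15 genes above the dashed line of equal level. Blue points are the 3 called lower and grey points the 6 not called.

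A pair of contrasts at one Ferguson stage, chosen after the data were seen, gave like counts. At stage 21, femoral scale placode against claw placode had 14 members higher and 3 lower, where 16.8% of genes were called higher and 31.6% lower, and the median was 1.16 for members and -0.13 for all genes. At stage 22, flank scale placode against claw morphogenesis had 15 higher and 1 lower, where 36.9% of genes were called higher and 30.4% lower, with medians of 1.45 and 0.10. At stage 22 ENSGALG00000023435 (-0.08, adjusted p = 0.784) and ENSGALG00000000337 (-0.05, adjusted p = 0.83) were no longer called by limma.

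The 8 members with a margin of at least 2 in both birds included 7 tested in alligator, and all 7 were called higher in scale than claw, with a median of 2.71. Of the 25 with a smaller margin 17 were tested, of which 8 were higher and 3 lower, with a median of 0.48. Over all genes tested 30.9% were called higher and 42% lower. The difference between these sets was not tested.

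Between placode and morphogenesis of alligator scale, members more often rose than fell. Of the 24 tested, 12 (50%) rose and 4 (16.7%) fell by limma, while 11.6% of all genes rose and 31.6% fell. The median change was 0.35 log2 units over the members and -0.13 over all genes. Rescaling each library by its median of ratios moved the all-gene median to -0.0015 and turned the all-gene counts from 905 rising and 2467 falling into 1470 and 1375. Quantile normalization gave 1423 and 1732. Members stood at 12 rising and 4 falling under each scaling. Of the 24, 10 were both higher in scale than claw and rising, as were 3.62% of all genes.

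ENSGALG00000015205 rose most in alligator scale, by 2.82 ± 0.20 (adjusted p = 1.15e-05, limma). Its flank libraries held 18.1 and 17.7 TPM at placode and 85.5 and 47.0 TPM at morphogenesis, and its femoral libraries 17.5 and 19.8 TPM, then 240 and 336 TPM. Every morphogenesis library was above every placode library. ENSGALG00000013925 rose by 2.06 ± 0.17 (adjusted p = 2.08e-05, limma), from 4.37 to 8.57 TPM over the 4 placode libraries to 20.1 to 45.0 TPM over the 4 morphogenesis libraries. ENSGALG00000016584 fell by 2.53 ± 0.44 (adjusted p = 0.00198, limma). It held 30.7 and 34.5 TPM in flank placode, 24.6 and 99.01 TPM in femoral placode, 18.3 and 22.1 TPM in flank morphogenesis, and 0.997 and 1.86 TPM in femoral morphogenesis, so that most of its fall lay in femoral scale. ENSGALG00000015774 fell by 1.34 ± 0.32 (adjusted p = 0.00686, limma), where a femoral placode library of 12.2 TPM stood above the others, and by 0.90 (adjusted p = 0.00456) without that library.

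Alligator femoral and flank scale differed for 3 of 24 members (12.5%), against 3.38% of genes. ENSGALG00000015205 was higher in femoral scale by 1.10 ± 0.20 (adjusted p = 0.0184) and ENSGALG00000004885 by 0.82 ± 0.16 (adjusted p = 0.022), while ENSGALG00000010065 was lower by limma, with a difference of -0.66 ± 0.13 (adjusted p = 0.022). For ENSGALG00000015205 the placode libraries were alike, at 18.1 and 17.7 TPM in flank and 17.5 and 19.8 TPM in femoral scale. Its difference lay at morphogenesis, with 85.5 and 47.0 TPM in flank and 240 and 336 TPM in femoral scale. Flank libraries were all on lane 7 and femoral libraries all on lane 3. The placodes were at stages 22 and 21 and the morphogenesis samples at 23 and 23 to 24, flank first. Lane, age and region thus cannot be told apart. With 1 library left out the differences kept their sign. They ran from 0.89 to 1.31 for ENSGALG00000015205, from 0.65 to 0.995 for ENSGALG00000004885 and from -0.74 to -0.58 for ENSGALG00000010065. The calls, however, depended on which libraries were kept. The count was 0 without flank placode replicate 2, with 7 members at an unadjusted p under 0.05, and 0 without femoral morphogenesis replicate 2, with 9. It was 1 without flank placode replicate 1 and 5 without femoral placode replicate 1.

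From feather placode to bud members changed in both directions. In chicken 5 of 33 (15.2%) rose and 9 (27.3%) fell by limma over 6776 genes, of which 20.3% rose and 14.9% fell. The median change was -0.48 for the members and 0.05 for all genes. In emu 5 (15.2%) rose and 3 (9.09%) fell, against 7.51% and 5.53% of genes, with medians of -0.22 and 0.03. The emu count was 5 without dorsal morphogenesis replicate 1 and also 5 without femoral morphogenesis replicate 2. The sign of the change was the same in both birds for 23 of 33 (69.7%) and for 60% of all genes, and 24 members were negative in chicken and 22 in emu. Both birds called the same rise for 2 members, the same fall for 2 and opposite changes for 1. In this fit, as for the tracts below, the spread was pooled over feather and foot libraries. The SE and calls thus also reflect how much a member varied in foot. ENSGALG00000016584 held 808 to 978 TPM in chicken placode and 406 to 609 TPM in the bud, without overlap. It was not called, with a change of -0.86 ± 0.73 (adjusted p = 0.387, limma).

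ENSGALG00000009948 and ENSGALG00000006726 rose in both birds. ENSGALG00000009948 held 0.115 and 0.0739 TPM in chicken dorsal placode, 6.07 and 4.42 TPM in femoral placode, 10.4 and 11.8 TPM in dorsal bud and 12.9 and 16.2 TPM in femoral bud. In emu it held 0 to 0.325 TPM over the 4 placode libraries and 4.06 to 7.57 TPM over the 4 bud libraries. Bud and placode libraries did not overlap in either bird, and it rose by 2.39 ± 0.18 in chicken (adjusted p = 4.47e-09) and by 2.50 ± 0.18 in emu (adjusted p = 2.05e-08, limma). This gene was dermis-enriched, 3.60 log2 units higher in chicken dermis than epidermis, with 40.6 to 97.7 TPM in the feather dermis libraries. The part of dermis in its rise was not tested. ENSGALG00000006726 held 107 to 165 TPM over the chicken placode libraries and 525 to 627 TPM over the buds, a rise of 2.01 ± 0.22 (adjusted p = 7.06e-07, limma). In emu its placode libraries held 64.6 to 111 TPM and its buds 196 to 272 TPM. Foot epidermis libraries held 7.10 to 48.3 TPM over both birds, below every feather library of the same bird.

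ENSGALG00000014908 fell in chicken by 2.37 ± 0.34 (adjusted p = 1.57e-05, limma), from 134, 131, 79.0 and 112 TPM at placode to 31.8, 24.9, 14.1 and 16.8 TPM in the bud. In emu its placode libraries held 49.02 to 95.4 TPM and its buds 52.7 to 82.9 TPM, which overlapped. In emu ENSGALG00000015774 fell by 1.02 ± 0.19 (adjusted p = 0.00131) and ENSGALG00000013112 by 1.11 ± 0.27 (adjusted p = 0.00791, limma). ENSGALG00000015774 was also called lower in the chicken bud, with a change of -0.97 ± 0.19 (adjusted p = 0.000511, limma). Its emu placode libraries held 44.0 to 68.3 TPM and its emu buds 21.5 to 29.7 TPM, without overlap. ENSGALG00000013112, dermis-enriched in chicken, held 8.504 to 18.2 TPM at placode and 3.03 to 7.70 TPM in the bud of emu. The part of dermis in these values was not tested. Its call was lost without dorsal morphogenesis replicate 1 (adjusted p = 0.0624) and without femoral morphogenesis replicate 2 (adjusted p = 0.068).

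**Figure D4:**
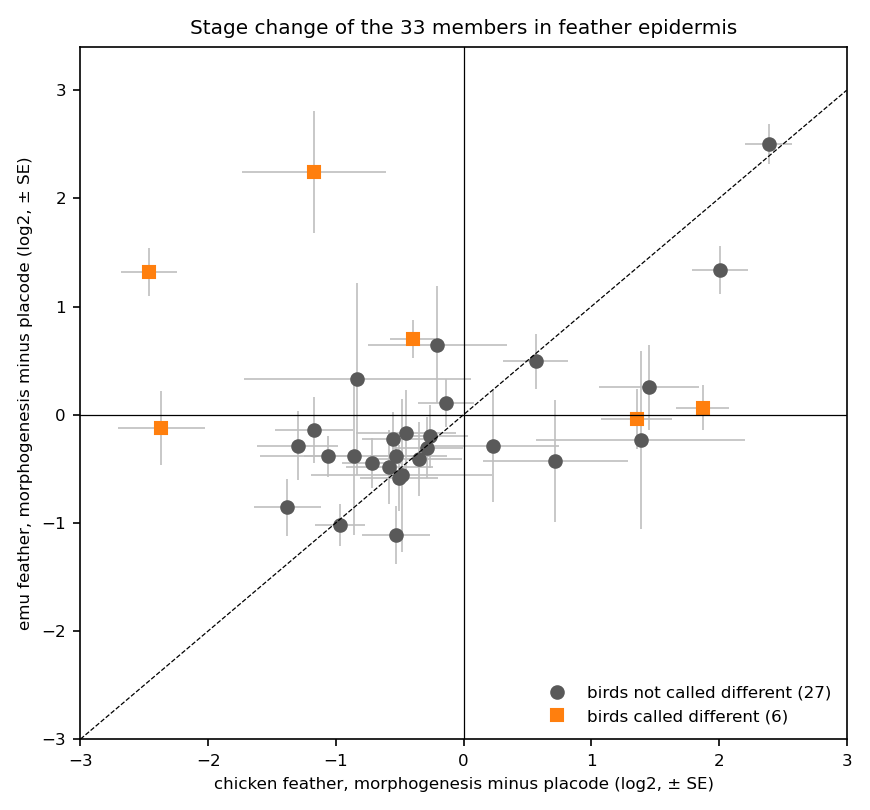
Change of the 33 members from feather placode to bud in chicken (x axis) and emu (y axis), in log2 units with standard errors; the dashed line marks equal change. Orange squares are the 6 members whose changes differed between the birds, and grey circles the other 27. The 2 members at the upper right rose in both birds, by 2.39 and 2.50 for the upper one.

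The stage change itself differed between the birds for 6 of 33 members (18.2%), against 18.3% of all genes, so the share was near the background. ENSGALG00000007759 had the largest difference, -3.79 ± 0.31 log2 units, chicken minus emu (adjusted p = 3.87e-08, limma). It held 49.4, 50.7, 33.4 and 29.4 TPM in chicken placode and 5.73 to 6.98 TPM in the bud, while emu went from 3.23 to 5.85 TPM up to 9.56 to 14.1 TPM. It was called lower in chicken (-2.46) and higher in emu (1.32). This gene was dermis-enriched, 2.06 log2 units higher in chicken dermis than epidermis, with 10.6 to 23.8 TPM in the feather dermis libraries. The summed TPM of dermis-enriched genes that were no members ran from 11044 to 12760 in chicken feather placode and from 8928 to 11554 in the bud. The part of dermis in the values of ENSGALG00000007759 was not tested. ENSGALG00000003551 differed by -3.42 ± 0.80 (adjusted p = 0.00509, limma). Chicken held 13.2 to 14.99 TPM at placode and 3.86 to 8.17 TPM in the bud, and emu 5.51 to 10.5 TPM, then 36.1 to 61.0 TPM, a rise in emu of 2.25 ± 0.57 (adjusted p = 0.0113). This gene was 5.76 log2 units higher in chicken dermis than epidermis, with 186 to 421 TPM in the dermis libraries. Of the other dermis-enriched genes, a set defined in chicken, 630 had an emu value. Their summed TPM ran from 14473 to 15578 in emu placode and from 12157 to 17167 in emu bud libraries, which overlapped. The part of dermis in the emu values of ENSGALG00000003551 was not tested.

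In the other direction ENSGALG00000003930 differed by 1.81 ± 0.29 (adjusted p = 0.000181, limma). It went from 4.90 to 9.40 TPM at placode up to 22.6 to 34.6 TPM in the bud of chicken, and held 8.52 to 14.4 TPM and 9.80 to 12.5 TPM in emu. ENSGALG00000016615 differed by 1.40 ± 0.39 (adjusted p = 0.0169, limma), a call lost without chicken femoral placode replicate 1 (adjusted p = 0.0543). Its emu libraries were at 143 to 224 TPM in feather and at 67.3 to 88.9 TPM in foot, so its foot level in emu was far from 0.

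Dorsal and femoral tracts differed for few members. In chicken 1 of 33 (3.03%) was called, against 0.0295% of genes, or 2 of 6776. This was ENSGALG00000009948, higher in the femoral tract by 1.43 ± 0.18 (adjusted p = 0.000313, limma), with the dorsal placode libraries at 0.115 and 0.0739 TPM and the femoral placode libraries at 6.07 and 4.42 TPM. The gene was dermis-enriched. Its chicken dermis libraries held 97.7 and 85.5 TPM in the dorsal tract and 42.3 and 40.6 TPM in the femoral tract. The part of dermis in the call was not tested. In emu, where the femoral samples were labelled flank/femoral, 1 of 33 (3.03%) was called, against 0.207% of genes. This was ENSGALG00000002393, lower in the femoral tract by limma with a difference of -1.57 ± 0.18 (adjusted p = 5.18e-05). It held 125.9 and 131 TPM in dorsal placode, 21.8 and 21.2 TPM in femoral placode, 115 and 99.7 TPM in dorsal bud and 64.5 and 75.2 TPM in femoral bud. In emu 26 of 33 members had lower values in the femoral tract, with a median of -0.41 against -0.03 over all genes. Of the 33, 10 had an unadjusted p under 0.05 by limma, as did 633 of 6776 genes. Lanes were labelled for all 4 emu femoral libraries but for 1 of the 4 dorsal ones, and the part of lane was not tested. With the specimen as a fixed block neither tract call was kept (adjusted p = 0.364 in chicken and 0.754 in emu), while a random block kept both (1.37e-05 and 5.76e-06).

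Between the layers of chicken feather skin the members ranged widely. In feather dermis 8 of 33 members (24.2%) were higher by at least 1 log2 unit than in feather epidermis, against 11.8% of the 6776 bird genes tested, and 16 (48.5%) were lower by at least 1, against 9.45%. The other 9 lay within 1, and the range was from -6.16 to 5.02. The feather epidermis values also chose the members, so a lean towards lower dermis values is partly built in and the counts are a description. Of the 33, 10 (30.3%) were among the 1101 dermis-enriched genes, a set that took in 6.6% of the bird genes tested. That set also rests on the epidermis libraries used to choose the members. The summed TPM of the other 1091 in chicken epidermis ran from 8928 to 12760 in feather, from 5496 to 14548 in scutate scale, from 7381 to 15970 in reticulate scale and from 6106 to 16184 in claw. With both stages joined, feather thus lay within the range of the foot. At placode feather ran from 11044 to 12760 and foot from 6798 to 16184, which overlapped. At morphogenesis the 4 feather libraries, at 8928 to 11554, were all above the foot libraries, at 5496 to 8430. The bearing of this on the members was not tested. In emu, over 630 of these genes, the sum ran from 12157 to 17167 in feather and from 11037 to 23063 over the foot appendages, with overlap at each stage.

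Within the dermis, the share of members called in either direction between feather and foot was near that of all genes. The median member level was 3.69 to 4.55 in the 4 feather dermis libraries and 3.35 to 4.08 in the 6 foot dermis libraries. The 4 feather dermis libraries were taken from 2 specimens. By limma with a stage term, 3 of the 31 members tested (9.68%) were called, all higher in feather dermis. Of 12860 genes, 4.08% were called higher and 4.84% lower, or 8.92% in either direction. All 4 feather libraries were above all 6 foot libraries for 2 of 31 (6.45%), against 4.31% of genes. The median difference was 0.13 for the members and 0.07 for all genes. The count was 6 without claw morphogenesis dermis. ENSGALG00000009948 held 97.7 and 42.3 TPM in dorsal and femoral placode dermis, 85.5 and 40.6 TPM in the bud dermis, and 11.6 to 16.6 TPM in the 6 foot libraries. Feather and foot did not overlap, and the difference was 2.02 ± 0.27 (adjusted p = 0.0053, limma). ENSGALG00000014908 held 36.3, 65.9, 79.2 and 112 TPM in feather dermis and 6.81 to 63.7 TPM in foot dermis, which overlapped, and differed by 1.68 ± 0.34 (adjusted p = 0.0225, limma). With the specimen as a random block, for which limma estimated a correlation of 0.70 within a specimen, neither was called (adjusted p = 0.167 and 0.183), and 0 members and 136 of 12860 genes were, with 4 members at an unadjusted p under 0.05 by limma.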

How the data were processed

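The deposited values were in TPM, computed and scaled by the authors, in 1 table of 17889 genes by 60 libraries with chicken gene identifiers for every species. The tools listed in the submitters' processing notes, without their roles, were TopHat2 2.0.6, HTSeq 0.5.3p9 and CASAVA, while genome builds were not given in the sources used here. Per the labels' protocols, polyadenylated RNA was enriched and libraries kept the strand. Totals ran from 994044 to 999897 TPM in chicken, from 549879 to 549939 in emu over 8749 genes and from 619786 to 619877 in alligator over 9295 genes. How the latter were scaled is not stated. TPM keeps no read depth, so depth is unknown, no interval or floor was computed, and 0 means only that a gene was listed at 0.

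Groups followed the labelled species, layer, appendage and stage. No libraries were identical, and p-values speak to the spread among these libraries alone. The members and lists were chosen with earlier results of these data known. The fits used log2(TPM + 1) and group means in limma 3.58.1 (R 4.3.3), its empirical Bayes step with the trend and robust options, and a threshold of 0.05 on p-values adjusted by Benjamini-Hochberg over all genes tested, after simulated data had been used to check the code. The scale understates changes of low genes. Birds shared 1 fit of 38 epidermis libraries, alligator had 1 of 12 and chicken dermis 1 of 10, with appendage and stage terms. A gene entered at 1 TPM or more in at least 2 libraries of each species. Alternatives were another pseudocount (0.1), no filter, other scalings, a fit of 1 bird alone, specimen blocks, each library left out, and other margins.

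Genes are named by identifier, at most 2 higher and 2 lower in a comparison, taken as those with the largest called change, plus those with the largest margins. Gene and marker lists could not be applied without symbols, so the labelled layers were not checked against markers and no sequence is given. The dermis-enriched set replaced them after the data were seen. Dorsal and femoral feather libraries of a specimen were paired by the titles' specimen numbers. Deviations of such libraries from their group means correlated at 0.36 at each stage in chicken.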

Additional observations from a re-analysis of the deposited data

Results flagged for a closer look

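Among 48 groups of values checked for a library far from the others, 2 were found, and chance gives about 1 in 20. ENSGALG00000006726 held 107 TPM in chicken dorsal feather placode replicate 2, against 154, 164.1 and 165 TPM in the other 3 placode libraries, and the rise to the bud was 1.88 log2 units without it. ENSGALG00000015774 held 12.2 TPM in alligator femoral scale placode replicate 2, against 2.26, 2.44 and 2.89 TPM in the other 3 scale placode libraries.

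For 6 of the 33 members (18.2%) the change from feather placode to bud differed between chicken and emu by a limma contrast of the difference. Over all genes the share was 18.3%, so the count was near the background. The difference, chicken minus emu, was -3.79 log2 units for ENSGALG00000007759, -3.42 for ENSGALG00000003551 and -2.24 for ENSGALG00000014908. It was 1.81 for ENSGALG00000003930, 1.40 for ENSGALG00000016615 and -1.09 for ENSGALG00000002393.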

How the results depend on the processing

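No named gene changed direction under any alternative run, and among the alternative values of named genes 378 kept their side of the threshold and 30 lost the call. Counts of members called moved by more than 1.5 times as follows, by limma. The chicken tract count of 1 became 0 at a pseudocount of 0.1, with 3 members at an unadjusted p under 0.05. It became 2 with the specimen as a random replicate block and 0 with a fixed block, with 11 members at an unadjusted p under 0.05. The emu tract count of 1 became 0 with the fixed block, with 18 such members. No share over all genes stands beside the unadjusted counts or the tract counts of alternative runs, or beside any count with a single library left out. The alligator femoral against flank count of 3 became 5 under quantile normalization. The dermis count of 3 became 0 with the block. The block changed no other count by this much. The rule gave 84 genes at a margin of 0.5, 8 at a margin of 2, 43 at a pseudocount of 0.1, 25 with median-of-ratios scaling, 26 with quantile normalization, 24 from placode libraries alone and 40 from morphogenesis libraries alone. All 33 members were among the 43, and 23 of them were among the 24.

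Leaving out 1 library at a time gave 12 to 15 members called for the chicken stage change, 5 to 8 in emu, 5 to 6 for their difference and 1 to 1 for each tract contrast. It gave 17 to 20 for alligator scale against claw, 14 to 16 for the alligator stage change, 0 to 5 for femoral against flank scale and 2 to 6 in dermis. The rule gave 30 to 35 genes, and ENSGALG00000005266 was kept in the fewest of 38 such repeats, 27. In dermis ENSGALG00000014908 lost its call in 4 of 10 repeats, with adjusted p up to 0.0686. The cause of these moves was not tested. Groups of 2 libraries, or 1, limit every comparison. Feather was labelled as younger than foot in most, the stage 36 reading of bud against claw placode apart.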

Other observations

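The 10 dermis-enriched members and the other 23 were read separately where the rule had not been used. In alligator scale against claw, 5 of the 10 were tested, with 2 higher, 1 lower and a median of 0.48 log2 units, and 19 of the 23 were tested, with 13 higher, 2 lower and a median of 1.79. From feather placode to bud, 1 of the 10 rose and 3 fell in chicken, and 3 rose and 2 fell in emu. Of the other 23, 4 rose and 6 fell in chicken, and 2 rose and 1 fell in emu. Over all genes tested, 30.9% were called higher and 42% lower in alligator scale than in claw. From feather placode to bud 20.3% of genes rose and 14.9% fell in chicken, and 7.51% rose and 5.53% fell in emu. No share over all dermis-enriched genes stands beside these counts, and the difference between the sets was not tested.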
